A study of Mus musculus with 2 samples.

Results

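B cells are the lymphocytes that carry membrane immunoglobulin and can become antibody-secreting cells. They were chosen here by a rule on their transcripts: at least 3 unique molecular identifiers (UMIs, 1 per captured RNA molecule) of Cd79a, Cd79b and Ms4a1 together, no UMI of Cd3e or Cd3d, at most 2 UMIs of the 3 C1q genes, and under 3% of UMIs from S100a8 and S100a9. Cells with over 20% of UMIs from Igkc, Jchain, Igha and Ighm were left out, so that plasma cells did not set the totals. This gave 145 B cells of 10260 cells in the diabetic library and 272 of 10948 in the normoglycemic library, 417 of 21208 in all. The study compared the gingiva of diabetic mice with that of normoglycemic mice in periodontitis, the inflammation of the tissue that holds the teeth. Type I diabetes was induced with streptozotocin, a toxin of the insulin-producing beta cells. Both groups had 2 weeks of inflammation induced with bacteria, then 2 weeks of waiting, and both had the genotype CD11CCre-/-;FoxoLL on a mixed C57B6 and FVB background, in which the series' design states that Foxo1 protein is normal. Each library was 1 pool of cells from 4 mice, sorted as CD45+ after removal of DAPI+, CD31+ and Ter-119+ cells, with CD11c+CD45+ cells enriched by 20%, and 10000 cells were loaded per lane. With 1 library per condition no test between conditions was possible. The 95% intervals given with differences below therefore cover counting error only, not the spread between mice. Those of ratios treat each UMI as independent, so they leave out the spread between cells too.

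B cells bind antigen through the B cell receptor, membrane immunoglobulin paired with the products of Cd79a and Cd79b, and present peptides from it to T cells on MHC class II. Receptor engagement switches on immediate early transcription factors such as the AP-1 family within minutes, and NF-kappaB target genes after them. A naive cell carries IgM and IgD. With T cell help it can switch class and turn to IgG or IgA. In periodontitis B cells and plasma cells gather in the gingiva.

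The B cells held 802500 UMIs in the diabetic and 1559994 in the normoglycemic library, with medians of 4338 and 4566.5 UMIs per cell. The 3 genes of the rule gave 3 to 92 UMIs per diabetic cell (median 12) and 3 to 120 per normoglycemic cell (median 18). At the threshold, 4 diabetic and 4 normoglycemic cells had exactly 3 UMIs, and 4 and 8 further cells had 2 UMIs and stayed out. The label was checked on markers that the rule did not use. Ebf1, a transcription factor that sets B lineage identity, was detected in 98.6% of diabetic and 98.9% of normoglycemic B cells. Pax5, which maintains that identity, was detected in 60.0% and 72.8%. The 15 genes with the largest smaller-of-both-libraries excess over all other cells held the 3 genes of the rule, whose excess the rule fixed. Among the rest were Fcmr, Vpreb3, Ighd, Gm30211, Pax5, Cr2, Gm31243, Iglc2, Spib, Cxcr5 and Bank1. Fcmr, an IgM receptor, stood at 234 CPM (UMIs per 1000000 UMIs of the B cells) in diabetic B cells against 0.169 CPM in the other diabetic cells, and at 306 against 0.984 CPM in the normoglycemic library. Cr2, the complement receptor CD21, stood at 133 against 0.169 CPM in the diabetic library. No cell barcode was shared between the B cells of the libraries.

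Some markers of other cells were present in cells that met the rule, and their part in the differences below was not tested. The rule itself set Cd3d and Cd3e to 0 and capped S100a8, S100a9 and the C1q genes, which are part of the sums given here. The 10 T cell markers summed to 23.7 CPM in diabetic and 30.8 CPM in normoglycemic B cells, with Cd8a, which the rule did not use, at 0 in both. The 9 neutrophil markers summed to 1330 and 718 CPM, with Ly6g at 0 in both, against 45031 and 46993 CPM in all other cells, and 1 diabetic cell held 334 of the 1067 UMIs of the diabetic sum. The 9 macrophage markers summed to 774 and 1146 CPM, most of it Apoe at 667 and 1015 CPM, and Adgre1 was at 0 in diabetic B cells. Single cells also held most UMIs of genes outside these sums. One diabetic cell held 565 of 694 UMIs of Lyz2, a lysozyme gene of myeloid cells, and another held 74 of 77 UMIs of Acta2, the smooth muscle actin gene. Secretory genes of salivary glands were found in diabetic B cells almost alone. Bpifa2 had a UMI in 17.2% of diabetic B cells, close to the 22.1% of T-gated and 21.3% of neutrophil-gated cells of that library, and in 0 of 272 normoglycemic B cells, which, at 3 counts, allows a share of cells with a UMI of up to 1.10%.

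B cells were less frequent among diabetic cells. They were 1.41% of all diabetic cells (exact Clopper-Pearson interval 1.19 to 1.66) and 2.48% of all normoglycemic cells (2.20 to 2.79), a difference of -1.07 percentage points (Newcombe interval -1.45 to -0.70). Of the cells that were not neutrophil-gated, with neutrophils set apart by at least 3% of UMIs from S100a8 and S100a9, B cells were 2.59% in the diabetic and 4.59% in the normoglycemic library. T-gated cells, with at least 2 UMIs of Cd3e and Cd3d and none of the B cell rule genes, were also a smaller share, 3.98% against 7.97%. Among B and T-gated cells together, B cells were 26.2% in the diabetic and 23.8% in the normoglycemic library, a difference of 2.47 points with an interval of -1.86 to 6.96 that includes 0. The sort enriched CD11c+ cells, so these are shares of sorted cells and not of the tissue. Cells left out for over 20% immunoglobulin numbered 11 in the diabetic and 3 in the normoglycemic library.

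**Figure D1:**
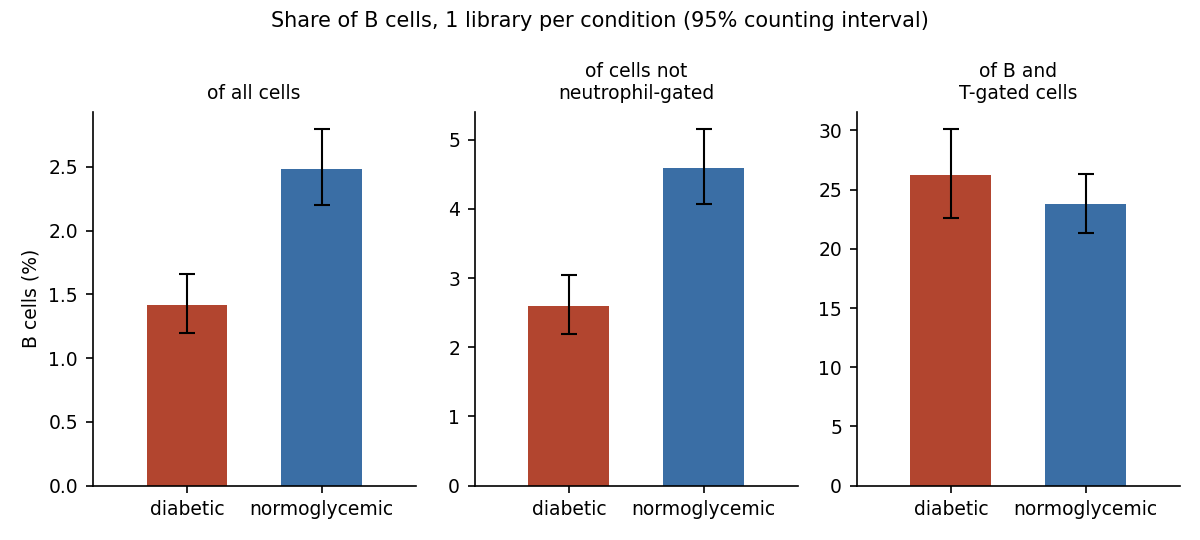
Share of B cells in percent of 3 denominators (panels), as bars from 0 with 95% exact binomial intervals, for the diabetic library (left bar) and the normoglycemic library (right bar). The diabetic bar is lower in the first 2 panels, at 1.41% and 2.59%, and the intervals overlap in the panel of B and T-gated cells, at 26.2% and 23.8%.

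In all, 2738 genes reached 50 CPM in the B cells of either library. Of these, 148 (5.41%) were at least 1.5-fold higher and 385 (14.1%) at least 1.5-fold lower in diabetic B cells, and the median log2 ratio of diabetic over normoglycemic was -0.15. The balance depended on the scaling: with edgeR's TMM factors, which bring the median of all genes close to 0, the counts were 226 higher and 216 lower. Ribosomal protein genes took 38.1% of the UMIs of diabetic and 33.0% of those of normoglycemic B cells. All 82 of them that were measured stayed within 1.5-fold, with a median log2 ratio of 0.24. Gm42418, a transcript that overlaps ribosomal RNA repeats, was 1.93-fold higher in diabetic B cells, and between 1.83-fold and 2.28-fold higher in T-gated, macrophage-gated, dendritic-gated and neutrophil-gated cells. Gene ratios below are on the plain CPM scale, with 0.5 counts added to each sum, and are read against that median.

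**Figure D2:**
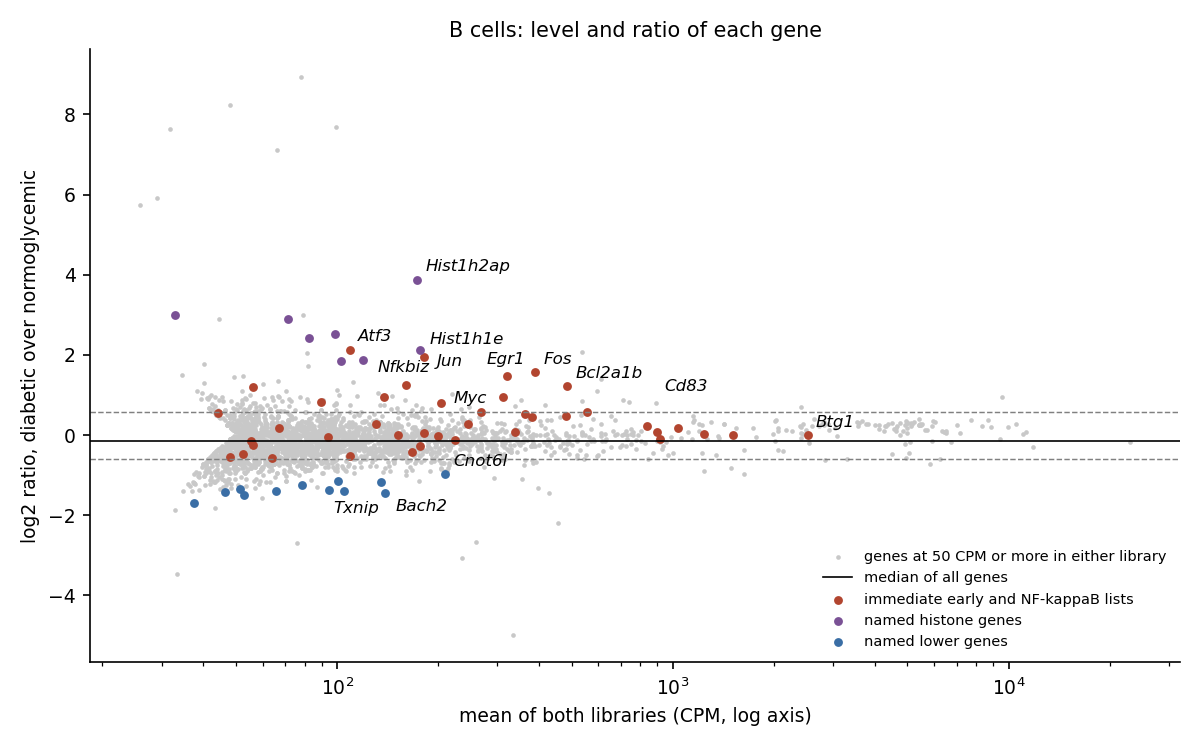
Each point is 1 of the 2738 genes at 50 CPM or more in B cells of either library, with the mean of both libraries in CPM on a log axis and the log2 ratio of diabetic over normoglycemic on the vertical axis. Dashed lines mark 1.5-fold and the solid line marks the median of all genes at -0.15. Fos, Jun, Egr1 and Atf3 lie above the upper dashed line, and Bach2 and Txnip lie below the lower one.

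Several immediate early genes were higher in diabetic B cells. All 26 genes of that list reached 50 CPM, and 7 were at least 1.5-fold higher in diabetic B cells, where 5.41% of all genes were, and 0 lower, where 14.1% were, with a median log2 ratio of 0.21 against -0.15 over all genes. Fos, which encodes an AP-1 subunit, stood at 581 CPM in diabetic and 196 CPM in normoglycemic B cells, a ratio of 2.96 (2.56 to 3.43). Its partner Jun stood at 289 and 75.0 CPM, a ratio of 3.85 (3.07 to 4.86). Egr1, a zinc finger factor induced by antigen receptor signals, stood at 472 and 171 CPM, a ratio of 2.76 (2.35 to 3.24). More cells carried Fos and Jun in the diabetic library: Fos was detected in 57.9% of diabetic and 41.2% of normoglycemic B cells, and Jun in 50.3% and 21.3%. Egr1 was detected in 31.0% (23.6 to 39.2) and 22.1% (17.3 to 27.5), with intervals that overlap. After each cell was thinned to 1000 UMIs, the shares were 29.7% and 16.3% for Fos and 24.1% and 5.93% for Jun. Those for Egr1 were 17.9% and 11.1%, again with overlapping intervals. Atf3, a stress-induced factor that can pair with Jun, differed in another way. It stood at 178 and 40.4 CPM, a ratio of 4.39 (3.26 to 6.03), yet was detected in 13.1% and 10.7% of cells, and 1 diabetic cell held 57 of its 143 UMIs. Without the top cell of each library its ratio was 3.54.

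The other list members past 1.5-fold were Myc, Fosb and Mir155hg. Myc, a factor that drives growth and division, stood at 412 CPM in diabetic and 213 CPM in normoglycemic B cells, a ratio of 1.93 (1.65 to 2.26), and was detected in 51.7% and 28.7% of cells. Fosb, a further AP-1 subunit, had a ratio of 1.74 (1.44 to 2.11), and Mir155hg, the host transcript of the microRNA miR-155, one of 2.31 (1.58 to 3.40). Other members of the list stayed near equal. Btg1, which restrains proliferation, stood at 2518 and 2521 CPM, Jund at 1515 and 1502 CPM, and Junb had a ratio of 1.02. Cd83, a surface protein of activated B cells that stabilises MHC class II, was on 2 other lists. It stood at 1134 and 651 CPM, a ratio of 1.74 (1.59 to 1.91), and was detected in 95.9% of diabetic and 83.8% of normoglycemic B cells.

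Promoters are shown for Fos and for Bcl2a1b, a gene of the NF-kappaB list described next. They were picked because these genes were higher together and each window holds a match to a pattern searched for here. The Fos window is chr12:85473640-85473889 on the plus strand and the Bcl2a1b window chr9:89199023-89199208 on the plus strand, both from the RefSeq promoter table for GRCm38.p6, cut before the first base that GENCODE annotates as an exon of the gene. Capitals mark TGACGT, the core of the cyclic AMP response element that CREB family factors bind, in Fos. In Bcl2a1b they mark TGAATCA, a match to TGANTCA, a loose AP-1-like pattern in which N is any base. Whether a factor binds either site was not tested.
Fos: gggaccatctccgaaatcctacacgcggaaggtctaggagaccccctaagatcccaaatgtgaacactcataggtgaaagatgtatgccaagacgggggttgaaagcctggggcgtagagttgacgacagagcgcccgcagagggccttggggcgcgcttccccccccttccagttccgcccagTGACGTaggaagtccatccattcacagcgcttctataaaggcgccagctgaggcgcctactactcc
Bcl2a1b: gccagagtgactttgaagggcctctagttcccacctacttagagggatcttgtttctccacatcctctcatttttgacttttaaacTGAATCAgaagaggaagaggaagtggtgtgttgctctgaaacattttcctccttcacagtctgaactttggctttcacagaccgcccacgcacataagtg
Over the 250 bases before the start of each RefSeq entry, searched on both strands, TGACGT was in 7.29% of 27025 genes with a window and TGANTCA in 7.82%. Of the 11 genes of the immediate early and NF-kappaB lists past 1.5-fold, 8 had a window. Of these, 3 held TGACGT (Atf3, Fos and Tnfaip3) and 3 held TGANTCA (Bcl2a1b, Bcl2a1d and Tnfaip3). Bcl2a1b and Bcl2a1d are near-identical copies, so their matches are not separate. These windows were not cut at exons as the printed ones were, and the cut Atf3 window held no match. The NF-kappaB consensus motif was in 1.75% of the genes and in 0 of the 8. A match describes these letters alone.

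Of 15 measured NF-kappaB list genes, 4 were at least 1.5-fold higher in diabetic B cells and 0 lower, against 5.41% and 14.1% of all genes. The list had a median log2 ratio of 0.17, with an interval of -0.43 to 0.83 that includes the -0.15 of all genes. Nfkbiz, an inhibitor-family protein that acts in the nucleus, stood at 227 CPM in diabetic and 94.9 CPM in normoglycemic B cells, a ratio of 2.39 (1.91 to 2.99). Yet it was detected in similar shares of cells, 28.3% of diabetic and 26.1% of normoglycemic, with up to 28 and 13 UMIs in a cell. Tnfaip3, which encodes the A20 enzyme that restrains the pathway, stood at 182 and 93.6 CPM, a ratio of 1.94 (1.53 to 2.46). Bcl2a1b, an anti-apoptotic BCL2 relative, stood at 677 and 291 CPM, a ratio of 2.32 (2.05 to 2.64), and its copy Bcl2a1d had a ratio of 1.77 (1.32 to 2.37). The Bcl2a1 genes are near-identical copies, so reads may be shared among them and single ratios are uncertain. The subunit gene Rel was near equal, at 886 and 945 CPM, and Nfkbia, the classical inhibitor, had a ratio of 1.49. Of 10 measured heat shock and dissociation genes 3 were higher and 0 lower, against the same shares of all genes. Dnaja1, a co-chaperone gene, stood at 457 and 251 CPM, a ratio of 1.82, and Dnajb1 and Hsph1 had ratios of 1.54 and 1.57. These genes can also respond to tissue dissociation, and the part of sample handling in their ratios was not tested.

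Most of these genes had lower ratios in other gated cells of the same libraries. The single genes were picked for a ratio past 1.5-fold in B cells, so lower ratios elsewhere are in part set by that choice. The median log2 ratio of the immediate early list was -0.15 in T-gated, -0.25 in macrophage-gated and -0.22 in dendritic-gated cells, where the median over all genes was -0.10, -0.02 and 0.01. In neutrophil-gated cells it was 0.03, the same as the median over all genes there, and 4 of the 20 measured genes were higher and 4 lower. Fos had a ratio of 0.93 in T-gated, 0.77 in macrophage-gated and 0.97 in dendritic-gated cells, but 2.46 in neutrophil-gated cells. The ratio in B cells divided by that in T-gated cells was 3.17 for Fos (counting interval 2.71 to 3.71). Atf3, Cd83, Nfkbiz, Tnfaip3 and Bcl2a1d had ratios below 1 in each of the 4 other gates. Jun and Myc were higher in diabetic T-gated cells too, with ratios of 1.84 and 1.58. Free RNA could carry transcripts between cells: in all other cells, Fos stood at 1499.5 CPM in the diabetic and 1184 CPM in the normoglycemic library, above the level in B cells, and its part was not tested. For Myc the other cells stood at 19.2 and 14.2 CPM, far under the B cells, and for Cd83 they stood at 343 and 518 CPM, lower in the diabetic library. Single cells were called male by Y-linked transcripts without Xist, or female by Xist without Y-linked transcripts. The log2 ratio of Fos was 0.88 among 54 diabetic and 80 normoglycemic cells called male, and 1.97 among 39 and 117 cells called female. That of Egr1 was 0.52, under 1.5-fold, in cells called male and 2.91 in cells called female, and that of Atf3 was 1.07 and 3.92. That of Tnfaip3 turned to -0.20 in cells called male, and that of Bcl2a1d to -0.38 in cells called female.

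The size of these differences changed when cells just outside the rule were let in. With a minimum of 2 UMIs of the rule genes, which added 4 diabetic and 8 normoglycemic cells, the log2 ratio of Fos was 0.35, against 1.56 with the minimum of 3 UMIs, and that of Jun was 0.72, against 1.94. Without the limits on S100a8, S100a9 and the C1q genes, which added 10 diabetic and 38 normoglycemic cells, Fos had 0.37, Jun 0.89 and Atf3 0.46, and Nfkbiz, Tnfaip3 and Fosb turned to -0.31, -0.26 and -0.21. Egr1, Myc and Cd83 had 1.32, 0.96 and 0.54 without those limits, and Cd83 was then under 1.5-fold. With the 11 diabetic and 3 normoglycemic cells over 20% immunoglobulin kept, Egr1 had 1.03, and Myc (0.53), Cd83 (0.38) and Fosb (0.47) were under 1.5-fold. With the deepest 10% of cells left out Fos had 2.09, and with cells that had 2 or more UMIs of 22 defining markers of other types left out, a setting added after seeing the data, it had 2.02.

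**Figure D3:**
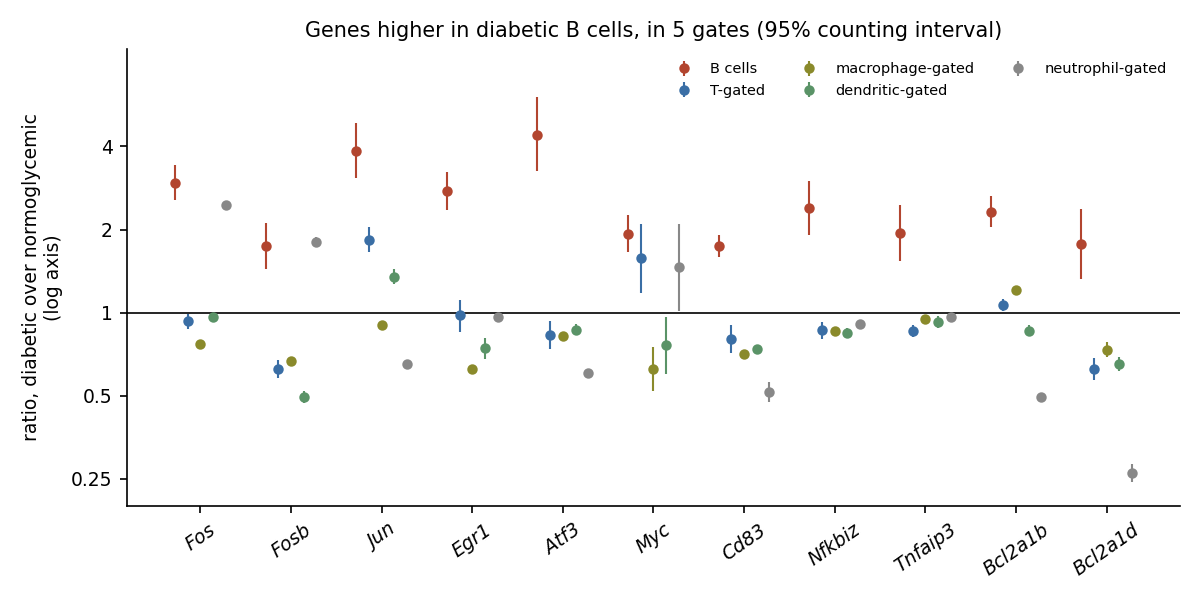
Ratio of diabetic over normoglycemic on a log axis for 11 genes in B cells, T-gated, macrophage-gated, dendritic-gated and neutrophil-gated cells, with 95% counting intervals. B cells have the highest ratio of the 5 for 10 of the 11 genes, with Fos at 2.96, and for Fosb neutrophil-gated cells at 1.81 lie above B cells at 1.74. The 11 genes were picked for a ratio past 1.5-fold in B cells, so this rank is in part set by the choice.

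Among the lower genes that met the naming rule, which leaves immunoglobulin genes apart, Bach2 had the smallest upper bound of its ratio. Bach2 encodes a transcription factor that holds back plasma cell differentiation and supports memory and germinal centre responses. It stood at 74.8 CPM in diabetic and 203 CPM in normoglycemic B cells, a ratio of 0.37 (0.27 to 0.49), and was detected in 28.3% and 51.5% of cells. Its ratio was 0.65 in T-gated, 0.74 in macrophage-gated, 1.18 in dendritic-gated and 0.44 in neutrophil-gated cells. The ratio in B cells divided by that in neutrophil-gated cells, where Bach2 stood at 1.20 and 2.75 CPM, was 0.83 with an interval of 0.49 to 1.43. Ifngr2, a chain of the interferon-gamma receptor, stood at 57.3 and 152 CPM, a ratio of 0.38 (0.27 to 0.52). Txnip, a thioredoxin-binding protein that responds to glucose, stood at 52.3 and 137 CPM, a ratio of 0.39 (0.27 to 0.53), and was detected in 16.6% of diabetic and 39.3% of normoglycemic B cells. In other gates Ifngr2 and Txnip were closer to equal, with ratios of 0.95 and 1.13 in T-gated cells and 0.99 and 1.05 in dendritic-gated cells. The other 9 genes named by the rule had ratios between 0.31 for Mir142hg, the host transcript of miR-142, and 0.51 for Cnot6l, a deadenylase subunit. They were Tuba4a (an alpha tubulin), Tmem64, Kcnq1ot1 (an imprinted antisense RNA), Trp53inp1 (a p53 target), Cerk (ceramide kinase), Cs (citrate synthase) and Rexo2 (an RNA exonuclease) besides those 2. For Rexo2 1 normoglycemic cell held 85 of 216 UMIs, and its ratio was 0.63 without the top cells and 0.78 without a set of 12 diabetic and 23 normoglycemic B cells that included those with transcripts of switched isotypes, of division or of the J chain. Kcnq1ot1 lies antisense within Kcnq1, and whether the counting used strand is not given in the sources used here.

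Genes of B cell identity and receptor signalling leaned lower, close to the shift of all genes. Over all genes, 5.41% were at least 1.5-fold higher and 14.1% at least 1.5-fold lower, and the counts of each list are to be read against these shares. Of 18 measured identity factors 1 was higher and 3 lower, with a median log2 ratio of -0.21. The lower ones were Bach2, Pax5 at 192 CPM in diabetic and 303 CPM in normoglycemic B cells (ratio 0.63), and the ETS factor gene Spib at 102 and 156 CPM (ratio 0.66). The higher one was Klf2, a factor of quiescence and lymphocyte trafficking, at 523 and 309 CPM, a ratio of 1.69 (1.48 to 1.93), and it had a ratio of 1.77 in T-gated cells. Ebf1 had a ratio of 0.77. Of 21 measured receptor signalling genes 1 was higher and 4 lower: the kinase gene Syk stood at 163 and 267 CPM (ratio 0.61), the phosphatase gene Inpp5d at 130 and 212 CPM (ratio 0.61), the adaptor gene Pik3ap1 had a ratio of 0.62 and Nfatc1 one of 0.57. The higher one was the adaptor gene Dapp1, with a ratio of 1.74. Of 14 measured coreceptors and inhibitors 3 were lower and 0 higher, namely Fcrla (ratio 0.55), Fcrl1 (0.62) and the inhibitory Fc receptor gene Fcgr2b (0.65).

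Follicular and naive genes gave 1 higher (Klf2) and 4 lower of 17, against 5.41% and 14.1% of all genes. Fcer2a, which encodes CD23, stood at 48.6 CPM in diabetic and 90.4 CPM in normoglycemic B cells, a ratio of 0.54, and was detected in 18.6% and 31.6% of cells. Tnfrsf13c, the receptor for the survival factor BAFF, stood at 158 and 255 CPM, a ratio of 0.62. The inhibitory receptor gene Btla had a ratio of 0.46 and the proton channel gene Hvcn1 one of 0.57. Homing receptors differed less: Cxcr4 stood at 513 and 598 CPM, Ccr7 at 334 and 340 CPM, and Cxcr5 at 136 and 142 CPM. Among survival genes, Bcl2l11, which encodes the pro-apoptotic BIM, stood at 96.0 and 165 CPM, a ratio of 0.58, beside the higher Bcl2a1 copies.

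The FOXO and insulin receptor list had 3 members higher and 6 lower of 13 measured, against 5.41% and 14.1% of all genes. Its median log2 ratio was -0.36, which stands 0.22 under that of all genes. The interval of the list median, -0.90 to 0.75, includes the median of all genes. The insulin receptor substrate gene Irs2 stood at 173 CPM in diabetic and 103 CPM in normoglycemic B cells, a ratio of 1.68 (1.33 to 2.12), and Sesn1, a stress-induced regulator of growth signalling, had a ratio of 1.71. Klf2 was the other higher member. Among the lower members, the PI3 kinase genes Pik3r1 and Pik3ca had ratios of 0.54 and 0.52, Rictor 0.54 and the cell cycle inhibitor gene Cdkn1b 0.66, and Txnip is given above. Each of Pik3r1, Pik3ca and Rictor had ratios between 0.82 and 1.02 in T-gated, macrophage-gated and dendritic-gated cells. Of 40 nuclear oxidative phosphorylation genes 39 stayed within 1.5-fold, with a median log2 ratio of -0.01. Of 10 glycolysis genes 1 was lower (Pgam1, ratio 0.55) and 0 higher, against 14.1% and 5.41% of all genes.

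Most genes of antigen presentation stayed within 1.5-fold in diabetic B cells. Those past it were lower, which was also the more frequent direction over all genes. Of 14 measured MHC class II genes 0 were higher and 3 lower, where 14.1% of all genes were lower, with a median log2 ratio of -0.26. H2-Ab1, a class II beta chain, stood at 2225.5 CPM in diabetic and 3449 CPM in normoglycemic B cells, a ratio of 0.65, while its partner H2-Aa stood at 4770.1 and 5378 CPM, a ratio of 0.89, and the invariant chain gene Cd74 had a ratio of 0.82. In macrophage-gated cells the same list had a median of -0.62 with 7 of 10 measured genes lower. Of 13 class I presentation genes 1 was lower (Tapbp, ratio 0.52) and 0 higher, against 14.1% and 5.41% of all genes. Of 9 measured type I interferon genes Bst2 and Ifitm3 were higher, where 5.41% of all genes were. But without the top cell of each library the ratios of Bst2 and Ifitm3 were 1.38 and 1.16. Among cytokine genes Tgfb1, a suppressive cytokine, stood at 148 and 261 CPM, a ratio of 0.57 (0.46 to 0.70), and Tnf at 56.1 and 28.2 CPM, a ratio of 1.99 (1.28 to 3.08) with a UMI in 6.90% and 8.09% of cells. The integrin genes Itga4 and Itgb2 were lower, with ratios of 0.54 and 0.57. Of 15 measured trafficking receptor and integrin genes 2 were lower and 0 higher, against 14.1% and 5.41% of all genes.

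**Figure D4:**
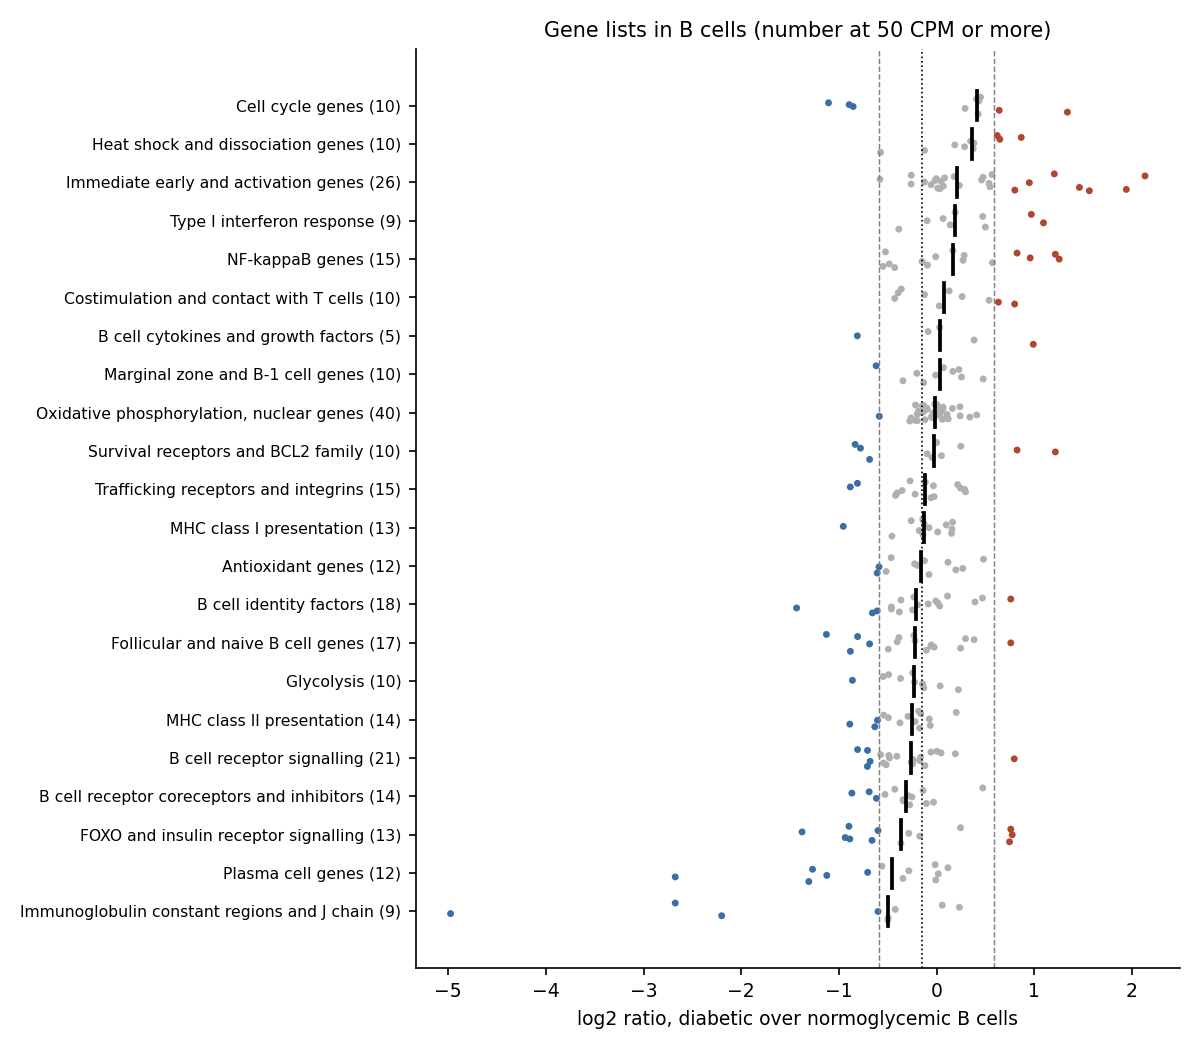
Each point is a gene of a list at 50 CPM or more, by its log2 ratio of diabetic over normoglycemic B cells, with the list median as a black bar, 1.5-fold as dashed lines and the median of all genes (-0.15) as a dotted line. The number after each list is how many genes were measured. The immediate early list has a median of 0.21, and the plasma cell and immunoglobulin lists, at -0.45 and -0.50, are among the lowest medians. Those 2 lists hold genes by which the rule left out 11 diabetic and 3 normoglycemic cells, so their medians are in part set by the rule.

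Ranked by the interval bound nearer to 1, the higher genes were mostly histone genes. Hist1h2ap, a replication-dependent H2A gene, stood at 324 CPM in diabetic and 21.8 CPM in normoglycemic B cells, a ratio of 14.7 (10.4 to 21.9), and was detected in 34.5% and 5.88% of cells. The linker histone gene Hist1h1e stood at 287 and 65.4 CPM, a ratio of 4.37 (3.46 to 5.59), and 6 more (Hist1h2bc, Hist1h1d, Hist1h4d, Hist1h1c, Hist1h2ae and Hist1h1b) had ratios from 3.57 to 8.03. Other cells of the libraries showed the same direction. Hist1h1e had ratios of 3.86, 5.06 and 4.92 in T-gated, macrophage-gated and dendritic-gated cells, and Hist1h2ap of 3.04, 4.25 and 5.20. The pseudogene-like transcripts Gm10076 and Gm10260 were higher as well, at ratios of 2.65 and 2.13, and at 2.72 and 2.07 in T-gated cells. Histone genes lie in a cluster of similar copies, so single ratios are uncertain. Top2a, a topoisomerase of dividing cells, rested on few cells: it had a UMI in 3.45% of diabetic and 6.25% of normoglycemic B cells, and 1 diabetic cell held 37 of its 77 UMIs.

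Cycling cells were few in both libraries. At least 2 UMIs of Mki67 and Top2a together were found in 6 of 145 diabetic B cells (4.14%) and 12 of 272 normoglycemic B cells (4.41%), a difference of -0.27 points (-4.12 to 4.69). Of 10 measured cell cycle genes 2 were higher and 3 lower, against 5.41% and 14.1% of all genes. The higher ones were Top2a and Stmn1, and the lower ones were the replication genes Pcna (ratio 0.55), Mcm3 (0.54) and Mcm6 (0.46). Stmn1 had 5 diabetic and 58 normoglycemic UMIs, a ratio of 0.18 (0.05 to 0.41), without the set of 12 and 23 cells named above, the reverse of its ratio of 1.56 with them. This cut and the cell groups in the next paragraphs were chosen after their values were seen.

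Most B cells in both libraries carried IgM and IgD transcripts. Ighm, the IgM heavy chain gene, was detected in 89.7% of diabetic and 90.8% of normoglycemic B cells and stood at 1116.5 and 1578 CPM. Ighd, the IgD gene, was detected in 75.9% (68.1 to 82.6) and 84.9% (80.1 to 89.0), a difference of -9.06 points (-17.5 to -1.23), and stood at 456 and 643 CPM, a ratio of 0.71. Thinned to 1000 UMIs per cell, the shares for Ighd were 41.4% and 53.0%. In neutrophil-gated cells, which should lack these genes, Ighd had a UMI in 0.13% and 0.60% and Ighm in 1.54% and 8.07%, at median depths of 3559 and 4199 UMIs per cell. Light chains were mostly kappa. Igkc was detected in 98.6% and 98.9% of B cells with medians of 20 and 25 UMIs, and 4 of 145 diabetic (2.76%) and 6 of 272 normoglycemic B cells (2.21%) had more lambda than kappa UMIs. Lambda transcripts were nonetheless common at low counts, since 78 diabetic and 153 normoglycemic cells had 1 to 5 lambda UMIs, while Iglc2 had a UMI in 0.21% and 0.36% of neutrophil-gated cells. The lambda genes Iglc1, Iglc2 and Iglc3 are similar copies, so how UMIs divide among them is uncertain.

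Sums of the switched isotypes rested on single cells. The rule had also left out 11 diabetic and 3 normoglycemic cells by their Igkc, Jchain, Igha and Ighm UMIs, so these levels are in part set by the rule. Igha, the IgA gene, summed to 16 UMIs in diabetic and 1009 UMIs in normoglycemic B cells, and 1 normoglycemic cell held 945 of them. It was detected in 10.3% of diabetic and 3.31% of normoglycemic B cells, but in 7.37% and 0.28% of neutrophil-gated cells, so the share in diabetic B cells is near the background of that library. At 2 or more UMIs the difference was -2.25 points (-5.06 to 1.18). Ighg2b summed to 130 and 1165 UMIs with 988 in 1 normoglycemic cell, and without the top cell of each library it stood at 97.2 and 113 CPM. Jchain, which joins IgA and IgM chains, summed to 56 and 701 UMIs, of which 2 normoglycemic cells held 359 and 268. Of the 12 measured plasma cell genes 0 were higher and 5 lower, against 5.41% and 14.1% of all genes. The lower ones were Jchain, which the rule used, Xbp1 (a factor of secretory cells, ratio 0.40), Edem1 (0.41), Txndc5 (0.46) and Sec11c (0.61). Without the set of 12 and 23 cells Xbp1 had a ratio of 0.70, Txndc5 0.75 and Sec11c 0.97, no longer past 1.5-fold, and Edem1 0.61. The chaperone gene Hspa5 was near equal at 608 and 614 CPM.

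**Figure D5:**
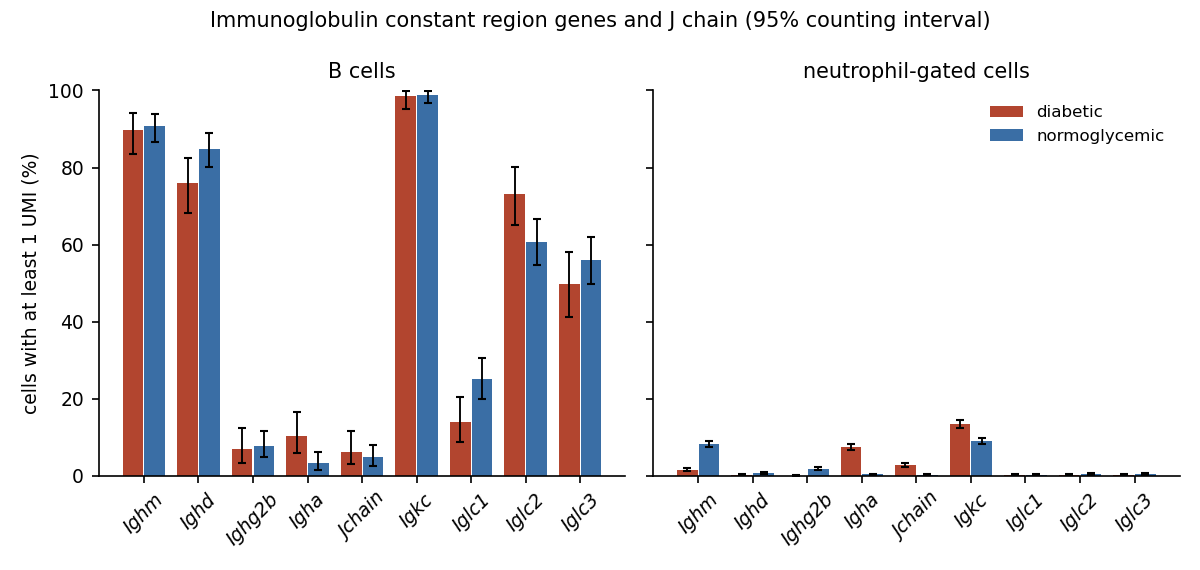
Percent of cells with at least 1 UMI of each immunoglobulin constant region gene or Jchain, in B cells (left panel) and neutrophil-gated cells (right panel), for the diabetic (red, left of each pair) and normoglycemic library (blue), with 95% exact binomial intervals. Ighd is at 75.9% and 84.9% of B cells, and the right panel shows Igha at 7.37% of diabetic neutrophil-gated cells.

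A small group of B cells in both libraries was class-switched, with at least 2 UMIs of IgG or IgA genes. They were 11 of 145 diabetic B cells (7.59%, 3.85 to 13.2) and 18 of 272 normoglycemic B cells (6.62%, 3.97 to 10.3), a difference of 0.97 points (-3.91 to 6.95). At least 2 UMIs of Ighg2b were found in 10 of the 11 diabetic and 15 of the 18 normoglycemic cells, and at least 2 of Igha in 1 and 8. Over these cells Ighg2b summed to 130 and 1161 UMIs and Igha to 2 and 1008 UMIs. Ighg1 had a UMI in 0 and 2. Of the cycling cells, 5 of 6 diabetic and 10 of 12 normoglycemic cells were switched. Some genes known from germinal centres stood higher in switched cells than in other B cells of their library. Bcl6, a transcription factor that germinal centre cells need, did not: switched over other cells, its ratio was 1.09 (0.24 to 3.06) in the diabetic and 0.77 (0.28 to 1.64) in the normoglycemic library. Rgs13, a regulator of chemokine receptor signalling, stood at 157 CPM in the switched diabetic cells against 0 CPM in the other diabetic B cells, and at 131 against 7.88 CPM in the normoglycemic library. S1pr2, a receptor that confines cells to the follicle, had a UMI in 3 of 11 and 7 of 18 switched cells, and in 0 and 2 of the other B cells. Fas, a death receptor, had a UMI in 6 of 11 and 13 of 18 of them, and in 6 of 134 and 4 of 254 other B cells. The switched cells were deeper, with medians of 7497 against 4298.5 UMIs in the diabetic and 12366 against 4446.5 in the normoglycemic library. Shares of cells with a UMI rise with depth, and these were not thinned. The naive gene Ighd had a UMI in 2 of 11 and 2 of 18.

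The same cells were low in the early genes that separated the libraries. Fos stood at 39.2 CPM in the switched diabetic cells against 708 CPM in the other diabetic B cells, and at 37.9 against 232 CPM in the normoglycemic library. Bach2 went the other way, at 131 against 61.6 CPM in the diabetic and 252 against 192 CPM in the normoglycemic library. Without a set of 12 diabetic and 23 normoglycemic cells that included the switched, cycling and J chain cells, the ratio of Fos between the libraries was 3.24. The others were 3.82 for Jun, 2.80 for Egr1 and 4.54 for Atf3. Bach2 then had a ratio of 0.34, and Igkc one of 0.86 where it had been 0.66 with all B cells.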

How the data were processed

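The authors deposited raw UMI counts per gene and cell, made with Cell Ranger (4.0.0 per the file headers, 6.0.2 per the submitters' processing notes, build mm10) from Chromium 3' v3 libraries. The annotation release is not given in the sources used here. Cells had at least 500 UMIs, 200 genes and at most 15% mitochondrial UMIs, which removed 236 diabetic and 332 normoglycemic barcodes and left medians of 4631.5 and 5302.5 UMIs. Of all barcodes, 32 occurred in both libraries. No doublet caller was run.

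Counts were summed over the B cells of each library and divided by their total (CPM). Ratios have exact conditional binomial intervals, shares Clopper-Pearson and differences Newcombe intervals, all at 95%. Python 3.11.15, numpy 2.4.6, scipy 1.17.1 and pandas 2.3.3 were used, with the steps tested on simulated data. Scale factors of edgeR 4.0.16 and DESeq2 1.42.0 served as alternatives. Macrophage-gated cells had at least 10 UMIs of the C1q genes, and dendritic-gated cells at least 1 UMI of Flt3 or Zbtb46 and 10 of H2-Aa and H2-Ab1, both without B or T cell rule genes.

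Members and gene lists were chosen with earlier results of these data known. Genes named outside the lists had at least 50 CPM and 30 counts where higher, a level there of at least that of all other cells, and an interval wholly beyond 1.5-fold: 19 higher and 24 lower genes met this, and the first 12 per direction are named. From each list, up to 4 members past 1.5-fold and the 2 highest are named, and others were chosen after their values were seen. Genome positions are from GENCODE vM21 for GRCm38. Some genes and a grouping of cells are not reported here.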

Additional observations from a re-analysis of the deposited data

Results flagged for a closer look

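For 9 genes the ratio of diabetic over normoglycemic was above 1 in B cells and below 1 in macrophage-gated and dendritic-gated cells, with counting intervals on opposite sides of 1. These genes are among those named above for their ratio in B cells, so the B cell side is in part set by that choice. The difference between cell types was not tested across mice. The AP-1 genes Fos and Fosb had ratios of 2.96 and 1.74 in B cells against 0.77 and 0.67 in macrophage-gated cells. Egr1 and Atf3 had ratios of 2.76 and 4.39 in B cells against 0.63 and 0.83. Myc and Cd83 had ratios of 1.93 and 1.74 in B cells against 0.63 and 0.71. The NF-kappaB genes Nfkbiz, Tnfaip3 and Bcl2a1d had ratios of 2.39, 1.94 and 1.77 in B cells against 0.86, 0.95 and 0.74.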

How the results depend on the processing

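No paired analysis was possible because each condition had 1 library. The difference in the share of all cells was between -1.32 and -0.961 points in all settings tried but one. That setting left out cells with 2 or more UMIs of 8 marker lists that include genes B cells express, such as Ccr7 and Plac8. It kept only 8 diabetic and 13 normoglycemic B cells and gave -0.0408 points, with 1134 genes higher and 1035 lower, and it turned Hist1h1d (-0.77), Bcl2a1b (-0.88), Klf2 (-2.20), Ifngr2, Trp53inp1 and Cerk (0.81 each), Txnip, Mir142hg and Fcer2a (0.0749 each), Spib (1.55) and Tnfrsf13c (1.26, all log2) round. With 22 defining markers instead, an alternative added after seeing the data, 132 and 248 cells were kept. None of the 46 genes followed through the settings changed direction there. Other genes named above were not followed.

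Counts of higher and lower genes were 221 and 254 with DESeq2 size factors, 226 and 216 with TMM, 226 and 220 centred on the median (added after seeing the data), 405 and 686 thinned, 280 and 618 in cells called male, 377 and 580 in cells called female, 395 and 902 at 20 CPM, 2801 and 4050 with no minimum, and 46 and 79 at 2-fold. Totals without ribosomal protein genes and Gm42418, also added later, gave 357 higher. Keeping the 11 and 3 cells over 20% immunoglobulin gave 848 lower, turned Trp53inp1 (1.30) and left Cd83 (0.38), Myc (0.53) and Fosb (0.47) under 1.5-fold.

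Without the limits on S100a8, S100a9 and C1q genes, Nfkbiz (-0.31), Tnfaip3 (-0.26) and Fosb (-0.21) turned and the log2 ratio of Fos was 0.37, against 1.56 with them. With a B marker minimum of 2 UMIs, which added 4 diabetic and 8 normoglycemic cells, that of Fos was 0.35. Top2a turned without the deepest 10% of cells (-4.22), with cells weighted equally (-0.36), in cells called female (-3.79) and without the 12 and 23 cells that included the switched and cycling cells (-1.57). In cells called male Tnfaip3 (-0.20), Fcer2a (0.00618) and the oxidative phosphorylation median (-0.0356 relative to all genes) turned, and in cells called female Rexo2 (0.0105) and Bcl2a1d (-0.38). The difference in cells with at least 2 UMIs was -10.6 points for Ighm, -19.0 for Ighd and -2.25 for Igha, which turned, and that for Igha was 1.60 points after thinning. The causes were not tested. Of 1012 gene values under the alternatives, 828 stayed within the counting interval, 161 moved and 23 turned, and of 480 list medians 446, 33 and 1. Part of this tally was fixed in advance. The settings at 20 CPM and with no minimum cannot change the ratio of a gene. A list could count as turned only if its main interval left out the median of all genes, as that of 4 lists did. The cytokine list, with 5 measured genes, had no interval and could not count as moved.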

Other observations

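The B cell totals also held secretory proteins outside the lists. The paralogs Dcpp1, Dcpp2 and Dcpp3, secreted proteins of mouse salivary glands, summed to 106, 125 and 159 UMIs in diabetic B cells against 1, 0 and 1 in normoglycemic B cells, and stood at 3366.5, 2112 and 3288 CPM in all other diabetic cells. The acute phase gene Saa3 had 113 UMIs in diabetic and 27 in normoglycemic B cells, and 1 diabetic cell held 78 of them. Spp1, the osteopontin gene, had 40 and 657 UMIs, of which 1 normoglycemic cell held 369.

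Each file also holds 4 antibody capture features, which the report does not use and whose meaning the labels do not give. At least 20 UMIs of them were found in 9 of 145 diabetic B cells (6.21%) and 26 of 272 normoglycemic B cells (9.56%), against 2.75% and 9.86% of all cells.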
